A study of Mus musculus with 12 samples.

Results

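Genes of the ATF4 arm of the integrated stress response were followed in mouse liver across an iron-loaded diet, a control diet and 2 methods of RNA-Seq library preparation. The genes were Atf4, Atf3, Atf5, Ddit3, Trib3, Asns, Chac1, Sesn2, Gdf15 and Fgf21. They were selected from known ATF4 pathway genes with their diet differences in these libraries already in view. All 10 were found, each as 1 of the 27022 genes in the count table. Because the selection used the diet contrast, the diet differences of these genes are given as a description, and no p-value is printed for them. Calls at a threshold are given only as counts beside the share of all genes, and nothing is supported with them.

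The RNA came from 6 female SJL/J mice, an inbred strain. All had arrived at 3 weeks of age and were 11 weeks old at collection. The 3 control mice ate AIN-93G diet with 50 ppm iron throughout. The 3 iron-loaded mice ate it until 6 weeks of age and then a diet with 2% carbonyl iron. All mice were fasted on the morning of collection and their livers were perfused. Each diet had 1 cage, and effects of diet and of cage cannot be told apart. Each RNA gave 1 Trad-KAPA library, which covers the whole transcript from fragmented mRNA, and 1 3’-LEXO library, which is primed at the poly(A) tail and reads the 3′ end. This gave 12 libraries, and libraries with the same number and diet were taken to come from the same mouse. Values are the share of a library's counts, scaled to 1 M counts (CPM), unless stated otherwise.

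The integrated stress response begins when one of the eIF2α kinases (HRI, PKR, PERK and GCN2) phosphorylates the translation factor eIF2α. General translation then slows, while the Atf4 mRNA is translated more because of short upstream reading frames in its leader. ATF4 protein binds C/EBP-ATF response elements and induces genes for amino acid synthesis and import, redox balance, feedback inhibition and, under lasting stress, cell death. In liver the pathway is known for answering amino acid shortage, ER stress, mitochondrial stress and, through HRI, changes in heme. It also drives the circulating factors FGF21 and GDF15. RNA levels report the target genes and the Atf4 mRNA, not the phosphorylation of eIF2α.

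The letters TGATGNAA, a form of the C/EBP-ATF response element, were searched on both strands of RefSeq promoter windows on GRCm38.p6 that run from 250 bases before to 50 bases after each annotated start. They were present in a window of 5 of the 10 genes, Atf3, Chac1, Fgf21, Asns and Trib3. Of all 32851 windows, 3.97% held them, and of all 27025 genes with a window, 4.51%. The stretches below show these matches because the genes share a regulator. They are written 5′ to 3′ on the strand of the gene, with the match in capitals.
Atf3: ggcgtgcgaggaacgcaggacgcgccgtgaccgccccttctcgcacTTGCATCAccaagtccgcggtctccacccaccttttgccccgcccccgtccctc
Chac1: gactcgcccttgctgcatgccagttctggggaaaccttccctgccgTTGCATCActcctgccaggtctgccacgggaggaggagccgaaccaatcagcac
Fgf21: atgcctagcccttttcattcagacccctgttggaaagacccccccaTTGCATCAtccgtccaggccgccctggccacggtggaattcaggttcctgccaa
Asns: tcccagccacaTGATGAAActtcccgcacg
Trib3: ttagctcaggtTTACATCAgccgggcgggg
The stretch of Atf3 lies at chr1:191183390-191183489 on the minus strand, that of Chac1 at chr2:119351003-119351102 on the plus strand and that of Fgf21 at chr7:45615576-45615675 on the minus strand. Those of Asns (chr6:7693214-7693243) and Trib3 (chr2:152344028-152344057) are both on the minus strand. In Atf3, Chac1 and Fgf21 the match begins at positions -110, -193 and -139 from the start, and the complementary strand reads TGATGCAA. In Asns the match is on the gene's own strand at -23 and lies within an exon of the GENCODE annotation, and in Trib3 it begins at 15 after the RefSeq start, with TGATGTAA on the complementary strand. The windows of Atf4, Atf5, Ddit3, Sesn2 and Gdf15 did not hold these letters. A match is only a match of letters, and binding was not measured.

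The libraries held 10724672 to 16553616 counts. Iron-loaded mouse 1 stood apart from the other 2 iron-loaded mice in both kits. Chi-square divided by its degrees of freedom was 54.7 to 66.1 between its counts and theirs, against 6.46 and 6.47 between iron-loaded mice 2 and 3, which were unusually alike, and 20.2 to 39.8 between control mice of the same kit. Albumin took 9.31% of its Trad-KAPA counts, against 11.95% to 13.5% in the other mice. Hepatocyte markers (Alb, Apoa1, Ttr, Serpina1a, Cyp2e1 and Ass1) were present in all libraries. Their summed levels in Trad-KAPA were 138160 to 150923 CPM in control and 110601 to 152127 CPM in iron-loaded mice. Their median log2 difference from the control mean was -0.25, -0.03 and 0.01 in iron-loaded mice 1, 2 and 3 by Trad-KAPA. By 3’-LEXO it was -0.30, -0.01 and 0.12. The diet difference of each of the 10 genes is therefore also given without iron-loaded mouse 1. In a whole liver, a change in the share of a cell type and a change in RNA per cell cannot be told apart.

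Atf4, Atf3, Trib3 and Asns were higher in every iron-loaded mouse than in every control mouse, in both kits. For the other 6 genes iron-loaded mouse 1 was also the highest, and for all of these but Atf5 the diets overlapped in at least 1 kit. The plot of each gene by library shows both patterns.

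**Figure D1:**
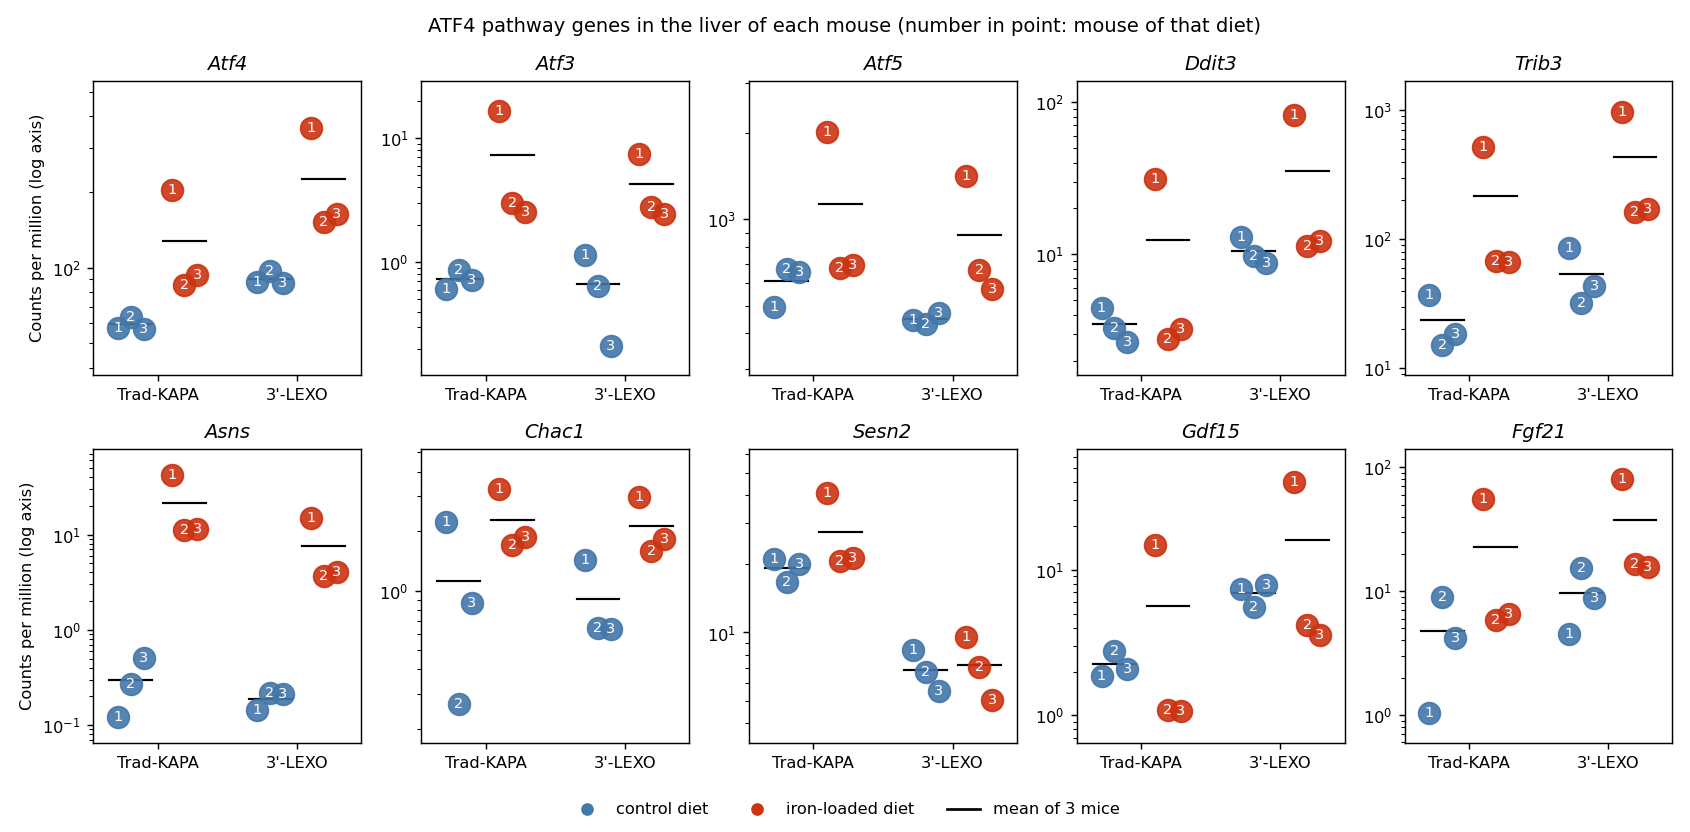
CPM (log axis) of the 10 genes in each library, with both kits in each panel; blue points are control mice, red points iron-loaded mice, the number is the mouse within its diet and the line is the mean of 3 mice. Iron-loaded mouse 1 is the highest of the 6 mice for all 10 genes in both kits, and iron-loaded mice 2 and 3 lie above all control mice in both kits for Atf4, Atf3, Atf5, Trib3 and Asns.

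Atf4 (ENSMUSG00000042406, chr15:80255184-80257541 on GRCm38) encodes the transcription factor at the centre of the pathway. In Trad-KAPA it was 57.8, 63.8 and 57.2 CPM in control mice 1, 2 and 3 and 204, 85.6 and 93.1 CPM in iron-loaded mice 1, 2 and 3. The 3’-LEXO libraries of the same mice gave 87.9, 96.6 and 87.1 CPM and 359.5, 152 and 163 CPM. The control mice were close together, all iron-loaded mice were above them, and mouse 1 was more than 2-fold above the other 2. Trad-KAPA gave a log2 fold change (iron-loaded minus control) of 1.01 ± 0.28 (SE, n = 3 and 3), and 3’-LEXO one of 1.24 ± 0.28. Without iron-loaded mouse 1 it was 0.55 ± 0.09 and 0.76 ± 0.13.

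Atf3 (ENSMUSG00000026628, chr1:191170296-191218039) encodes a stress-induced repressor and activator that is itself an ATF4 target. Its control levels were low, with 0.604, 0.871 and 0.723 CPM by Trad-KAPA and 1.14, 0.644 and 0.213 CPM by 3’-LEXO. The iron-loaded mice had 16.6, 3.01 and 2.52 CPM by Trad-KAPA and 7.44, 2.80 and 2.45 CPM by 3’-LEXO. All iron-loaded mice were again above all control mice. The control libraries held few reads, 33 over the Trad-KAPA libraries and 28 over the 3’-LEXO libraries. The ratio of pooled reads was 10.04 (95% exact interval 6.997 to 14.8, which covers counting error only) for Trad-KAPA, and 3’-LEXO gave 6.66 (4.43 to 10.3). Fitted log2 fold changes were 3.22 ± 0.78 and 2.60 ± 0.57 in the same order of kits, and without iron-loaded mouse 1 they were 1.88 ± 0.32 and 1.93 ± 0.50.

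Atf5 (ENSMUSG00000038539, chr7:44812256-44816658), a liver-rich factor also translated under eIF2α phosphorylation, had the highest level per length of these genes. Trad-KAPA gave 495, 671 and 654 CPM in the control mice and 2016, 676 and 692 CPM in the iron-loaded mice. In 3’-LEXO the values were 443, 430.6 and 471 CPM and 1414, 664 and 569 CPM. The groups did not overlap, but in Trad-KAPA iron-loaded mice 2 and 3 were only just above the highest control mouse. On the log2 scale the difference was 0.80 ± 0.38 and 0.90 ± 0.29 with all mice and 0.13 ± 0.15 and 0.42 ± 0.15 without iron-loaded mouse 1. A stretch of 82 bp of its exons overlaps exons of Nup62 and Il4i1 on the opposite strand, and whether strand was used in counting is not given in the sources used here.

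Ddit3 (ENSMUSG00000025408, chr10:127290774-127296288) encodes CHOP, the factor linked to cell death under lasting ER stress. In Trad-KAPA the control mice had 4.47, 3.28 and 2.67 CPM and the iron-loaded mice 31.0, 2.80 and 3.23 CPM. In 3’-LEXO they had 12.9, 9.80 and 8.79 CPM and 82.4, 11.3 and 12.3 CPM. Iron-loaded mouse 1 alone was high, and mice 2 and 3 lay within the range of the control mice in both kits. With all mice the log2 fold change was 1.71 ± 0.84 by Trad-KAPA and 1.67 ± 0.64 by 3’-LEXO. Without iron-loaded mouse 1 it was -0.25 ± 0.26 and 0.13 ± 0.20. The exons of Ddit3 share 105 bp with a second annotated Ddit3 gene on the same strand, not analysed here, and 68 bp with Mars on the opposite strand.

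Trib3 (ENSMUSG00000032715, chr2:152337422-152344032) encodes a pseudokinase that is induced by ATF4 and CHOP and feeds back on ATF4. Control mice had 36.7, 15.1 and 18.4 CPM in Trad-KAPA and iron-loaded mice 521, 68.1 and 66.5 CPM. In 3’-LEXO these were 85.5, 32.1 and 43.0 CPM and 980.5, 163 and 170.3 CPM. Control mouse 1 was the highest of the control mice in both kits, and the groups did not overlap. Its log2 fold change was 3.12 ± 0.80 and 2.94 ± 0.67, and 1.48 ± 0.29 and 1.60 ± 0.31 without iron-loaded mouse 1.

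Asns (ENSMUSG00000029752, chr6:7675169-7693254) encodes asparagine synthetase, the textbook target of the amino acid response. It was almost absent from control liver, with 0.121, 0.268 and 0.506 CPM by Trad-KAPA and 0.143, 0.215 and 0.213 CPM by 3’-LEXO. In iron-loaded liver it reached 42.2, 11.1 and 11.5 CPM by Trad-KAPA and 15.0, 3.64 and 4.09 CPM by 3’-LEXO. Every iron-loaded mouse was far above every control mouse. The ratio of pooled reads was 74.9 (95% exact interval 43.6 to 141) in Trad-KAPA, from 914 reads against 13, and 42.4 (21.2 to 99.1) in 3’-LEXO, from 280 reads against 8. For Asns the fitted log2 fold change was 6.09 ± 0.75 and 5.19 ± 0.70, a value that depends on the prior count at such low control levels. It was 5.22 ± 0.33 and 4.24 ± 0.43 without iron-loaded mouse 1. None of the control libraries reached the filter on low counts, so that Asns entered the fit only through the iron-loaded mice and had to differ.

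Chac1 (ENSMUSG00000027313, chr2:119351229-119354381), whose product breaks down glutathione, was near the limit of these libraries. Trad-KAPA gave 2.24, 0.268 and 0.867 CPM in control mice and 3.28, 1.71 and 1.87 CPM in iron-loaded mice. The 3’-LEXO values were 1.43, 0.644 and 0.638 CPM and 2.99, 1.59 and 1.82 CPM. The groups overlapped in Trad-KAPA through control mouse 1 and did not overlap in 3’-LEXO. Chac1 had log2 fold changes of 0.92 ± 0.58 and 1.18 ± 0.42, and 0.60 ± 0.62 and 0.87 ± 0.46 without iron-loaded mouse 1. The pooled reads, 53 in control and 97 in iron-loaded Trad-KAPA libraries and 38 and 76 in 3’-LEXO, limit the precision of these values.

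Sesn2 (ENSMUSG00000028893, chr4:132492032-132510501), an inhibitor of mTORC1 that senses leucine, showed the smallest differences. Its Trad-KAPA levels were 20.9, 16.5 and 20.0 CPM in control mice and 40.8, 20.6 and 21.1 CPM in iron-loaded mice. The 3’-LEXO levels were 8.36, 6.73 and 5.53 CPM and 9.51, 7.09 and 5.09 CPM. Mouse 1 was high by Trad-KAPA, whereas the 6 mice lay close together by 3’-LEXO. Trad-KAPA gave a log2 fold change of 0.44 ± 0.24 and 3’-LEXO of 0.02 ± 0.25, and the approximate 95% interval in 3’-LEXO ran from -0.47 to 0.50. Without iron-loaded mouse 1 the values were 0.08 ± 0.13 and -0.21 ± 0.24.

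Gdf15 (ENSMUSG00000038508, chr8:70629393-70632456) encodes a secreted factor that acts on hindbrain neurons and lowers food intake. In Trad-KAPA the control mice had 1.87, 2.75 and 2.10 CPM and the iron-loaded mice 14.9, 1.09 and 1.08 CPM. The 3’-LEXO values were 7.36, 5.51 and 7.87 CPM and 40.3, 4.20 and 3.55 CPM. Iron-loaded mouse 1 was above all control mice and iron-loaded mice 2 and 3 were below all control mice, in both kits. Fitted over all mice, the log2 fold change was 1.23 ± 0.90 and 1.13 ± 0.75, and without iron-loaded mouse 1 its sign turned, to -1.07 ± 0.32 and -0.88 ± 0.26.

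Fgf21 (ENSMUSG00000030827, chr7:45613886-45615490) encodes a hormone that liver releases on fasting and under ATF4 signalling. The control mice varied widely, with 1.03, 9.04 and 4.19 CPM by Trad-KAPA and 4.50, 15.5 and 8.86 CPM by 3’-LEXO. The iron-loaded mice had 55.6, 5.87 and 6.54 CPM and 80.8, 16.5 and 15.5 CPM. Mice 2 and 3 lay within the control range in Trad-KAPA and just above it in 3’-LEXO. Log2 fold changes were 2.15 ± 0.95 and 1.90 ± 0.62, and 0.36 ± 0.60 and 0.71 ± 0.35 without iron-loaded mouse 1.

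Of the 10 genes, 4 were called higher on the iron-loaded diet in Trad-KAPA (edgeR's quasi-likelihood F test, Benjamini-Hochberg adjusted p under 0.05 over all genes tested) and 4 in 3’-LEXO. They were Atf4, Atf3, Trib3 and Asns in both kits, and 0 were called lower. Of the 3 control libraries, none reached the filter on low counts for Asns in either kit, and 2 by Trad-KAPA and 1 by 3’-LEXO reached it for Atf3 and likewise for Chac1, so that the iron-loaded libraries carried these genes through the filter. Over all genes, 8.77% were called higher and 8.37% lower in Trad-KAPA (13151 tested), and 3.17% and 2.92% in 3’-LEXO (13301 tested). Because the genes were selected with this contrast known, nothing is read from that difference. Each iron-loaded library was above each control library for 5 of the 10 genes by Trad-KAPA and for 7 by 3’-LEXO, against 24.7% and 18.5% of all genes tested. The median log2 fold change of the 10 genes was 1.47 and 1.46 with all mice, and 0.46 and 0.73 without iron-loaded mouse 1, whereas the median of all genes was 0.02 and 0.01.

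The same 4 genes were called without iron-loaded mouse 1 in both kits, and Gdf15 was then also called in Trad-KAPA, as lower. In these fits 10.7% of all genes were called higher and 10.1% lower in Trad-KAPA, against 3.30% and 3.07% in 3’-LEXO. Leaving out control mouse 1, 2 or 3 left 1 gene called in Trad-KAPA, Asns. In 3’-LEXO it left 1 gene without control mouse 2 or 3, Asns, and 2 without control mouse 1, Asns and Atf3. Calls over all genes fell as well. Without control mouse 1, 2 or 3 they were 1105, 841 and 1033 in Trad-KAPA, against 2255 with all mice. In 3’-LEXO they were 326, 263 and 199, against 811. The log2 fold changes of Atf4, Atf3 and Trib3 stayed positive in each of these fits.

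**Figure D2:**
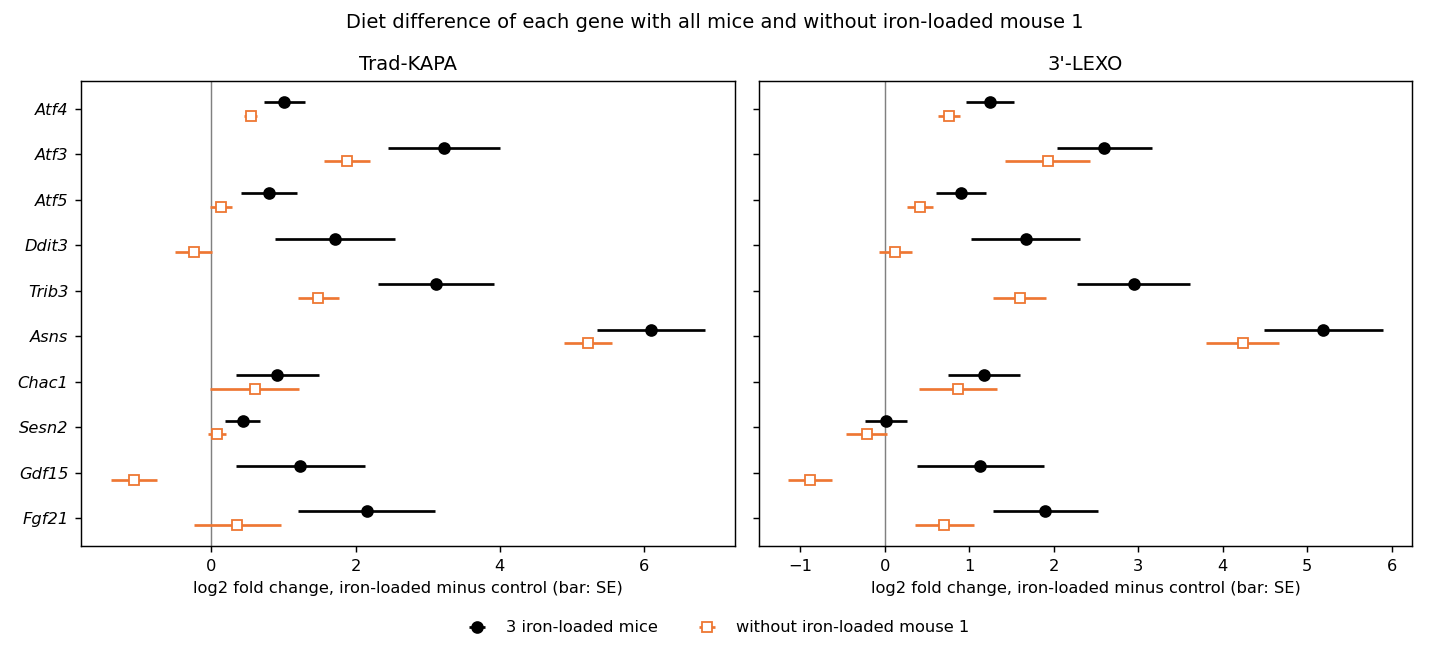
The log2 fold change (iron-loaded minus control, bars are SE) of each gene in Trad-KAPA (left) and 3’-LEXO (right), with all mice (black circles) and without iron-loaded mouse 1 (orange squares). Asns, Atf3, Trib3 and Atf4 stay above 0 in both kits, while Gdf15 moves from 1.23 to -1.07 on the left and from 1.13 to -0.88 on the right.

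Iron-loaded mouse 1 was the highest of the 6 mice in both kits for 10 of the 10 genes. Over the 12229 genes tested in both kits, it was the highest in both for 25.7%. It was at least 2-fold above the next mouse in both kits for 8 of the 10 genes, all but Chac1 and Sesn2, and for 0.867% of all genes, which are 106. No other mouse was 2-fold above the next for more than 12 genes. Nothing is read from these shares, since the 10 genes were selected with diet differences that include iron-loaded mouse 1. Its excess over the higher of iron-loaded mice 2 and 3 ranged over the 10 genes from 1.76-fold (Chac1) to 13.6-fold (Gdf15) by Trad-KAPA and from 1.34-fold (Sesn2) to 9.61-fold (Gdf15) by 3’-LEXO. The lower albumin share of this mouse moved with these levels, and its part in them was not tested.

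Levels can be compared between genes only per length, so they were also computed in the Trad-KAPA libraries as CPM per kilobase of merged exons (RPKM). In control liver Atf5 was by far the highest, at 304 ± 48.8 RPKM (SD, n = 3), followed by Atf4 at 25.3 ± 1.53 RPKM and Trib3 at 11.0 ± 5.47 RPKM. Sesn2 (5.51 ± 0.66), Fgf21 (4.999 ± 4.25) and Ddit3 (2.03 ± 0.53) came next, and neighbours among them overlapped. Gdf15 (1.21 ± 0.25), Chac1 (0.69 ± 0.62) and Atf3 (0.34 ± 0.06) followed, again with overlapping neighbours, and Asns was lowest at 0.109 ± 0.071 RPKM. In iron-loaded liver Trib3 (103 ± 123 RPKM) was above Atf4 (54.1 ± 28.2 RPKM) on average, but their ranges overlapped. Asns moved from the last to the sixth place in RPKM, at 7.90 ± 6.52.

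The same RNA read by both kits gave different levels of single genes, a measure that the selection did not use. On the control diet, 9 of the 10 genes could be tested between the kits and Asns could not, since its reads were too few. Ddit3, Gdf15, Trib3 and Atf4 were higher in 3’-LEXO than in Trad-KAPA. Atf5 and Sesn2 were lower, and Fgf21, Atf3 and Chac1 were not called. Over all 13541 genes tested, 34.6% were called higher and 34.8% lower in 3’-LEXO, so that 6 of 9 is close to the background.

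For Gdf15 the control means were 2.24 ± 0.45 CPM (Trad-KAPA; SD, n = 3) and 6.91 ± 1.24 CPM (3’-LEXO), a log2 difference of 1.61 ± 0.25 (SE; edgeR adjusted p = 0.000192). For Ddit3 it was 1.57 ± 0.22 (adjusted p = 0.000109), from 3.48 ± 0.91 to 10.5 ± 2.16 CPM. Sesn2 was lower in 3’-LEXO by the most, at -1.50 ± 0.17 (adjusted p = 2.41e-05), from 19.2 ± 2.30 to 6.87 ± 1.42 CPM. Sesn2 has the longest merged exons of the 10 genes, 3475 bp, and Fgf21 the shortest, 951 bp. All 6 mice had Atf4, Ddit3, Trib3, Gdf15 and Fgf21 higher in 3’-LEXO, and 0 of 6 had Atf5 or Sesn2 higher there.

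Trib3 differed by 1.18 ± 0.38 (edgeR adjusted p = 0.0179), Atf4 by 0.58 ± 0.10 (adjusted p = 0.000569) and Atf5 by -0.46 ± 0.16 (adjusted p = 0.0244). The Trib3 call was lost without control mouse 3 (adjusted p = 0.0753), with DESeq2 (0.0517) and in a fit of all 12 libraries with diet as a covariate (0.0742). The Atf5 call was lost without control mouse 2 or 3 (adjusted p = 0.168 and 0.0747) and in the fit of all 12 libraries (0.181). Fgf21 was 0.99 ± 0.59 higher without a call (adjusted p = 0.154). With the mouse as a block, which uses that both libraries of a mouse share its RNA, Fgf21 was called (1.09, adjusted p = 9.21e-05). In that edgeR fit Trib3 (1.16, adjusted p = 5.44e-09) and Atf5 (-0.44, adjusted p = 0.000602) kept their calls.

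**Figure D3:**
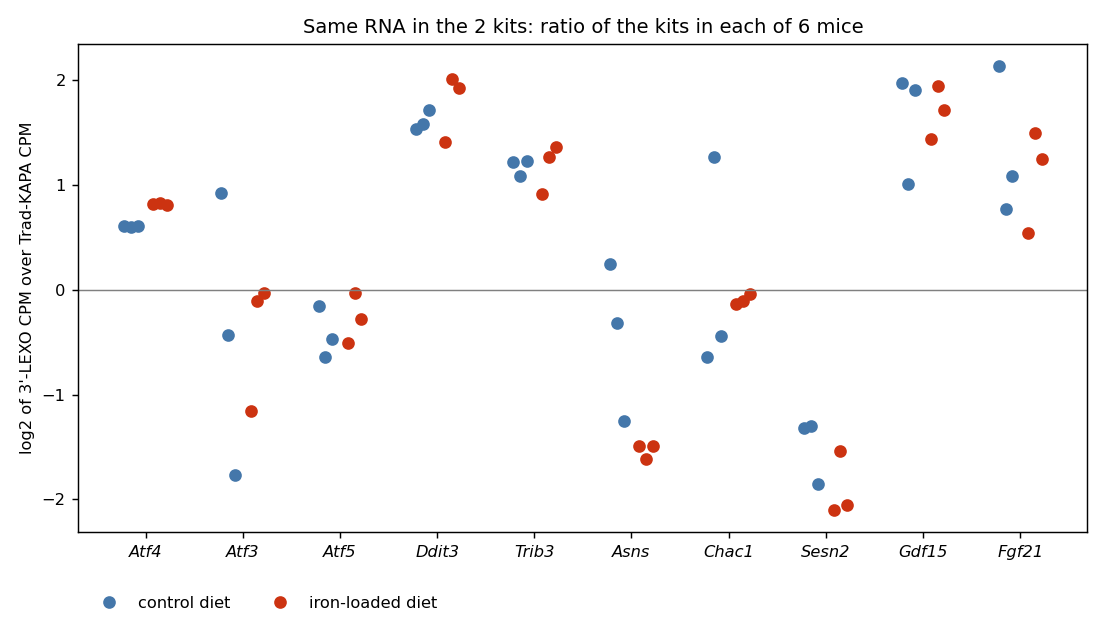
The log2 ratio of the 3’-LEXO CPM to the Trad-KAPA CPM of the same mouse, with 1 point for each of the 6 mice (blue control, red iron-loaded) and a line at 0 for equal CPM. Ddit3, Gdf15, Trib3, Fgf21 and Atf4 lie above 0 in all 6 mice and Sesn2 and Atf5 below 0 in all 6. Atf3, Asns and Chac1 each lie above 0 in 1 of the 6 mice and below 0 in the others. Their median log2 ratios are -0.27, -1.37 and -0.12.

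Whether the diet difference itself depended on the kit was tested by the interaction of diet and kit over the 12 libraries. None of the 10 genes was called, as was none of the 14384 genes tested (0%), with edgeR's quasi-likelihood F test. At an unadjusted p under 0.05 there were 402 of all genes and 0 of the 10, and DESeq2 called 0 genes. With the mouse as a block 5 genes were called, none of them among the 10, whose lowest adjusted p was 0.712. The difference of the log2 fold changes (3’-LEXO minus Trad-KAPA) ranged from -0.89 for Asns, with an approximate 95% interval from -4.13 to 2.35, to 0.26 for Chac1 (-1.28 to 1.79). For Atf4 it was 0.23 (-0.63 to 1.10) and for Sesn2 -0.42 (-1.14 to 0.31). These intervals are wide, and they do not show that the kits gave the same diet effect.

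Beyond the 10 genes, 7 lists of other genes around ATF4 were counted, from the kinases upstream to the targets. These lists, too, were put together with earlier results of these data known. Counts and adjusted p-values of their genes are therefore a description, and nothing is supported with them. They held 63 genes tested in Trad-KAPA, of which 22 rose and 4 fell, and 62 tested in 3’-LEXO, of which 7 rose and 1 fell. Over all genes 8.77% rose and 8.37% fell by Trad-KAPA, and 3.17% and 2.92% by 3’-LEXO. Over the lists the median log2 fold change was 0.42 with Trad-KAPA and 0.43 with 3’-LEXO. Without iron-loaded mouse 1, 26 rose and 5 fell in Trad-KAPA and 9 rose and 2 fell by 3’-LEXO, with medians of 0.27 and 0.26. In these fits 10.7% of all genes rose and 10.1% fell by Trad-KAPA, and 3.30% and 3.07% by 3’-LEXO. Leaving out control mouse 1, 2 or 3 instead left 12, 7 or 6 list genes called by Trad-KAPA and 3, 3 or 1 by 3’-LEXO. Over all genes it left 1105, 841 or 1033 called by Trad-KAPA, against 2255 with all mice. By 3’-LEXO it left 326, 263 or 199, against 811.

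The 4 eIF2α kinases sense the stress. Eif2ak3, which encodes the ER sensor PERK, rose in Trad-KAPA (23.0, 19.5 and 16.7 CPM in control and 35.1, 28.6 and 30.9 CPM in iron-loaded mice; log2 fold change 0.61 ± 0.12, edgeR adjusted p = 0.0165). In 3’-LEXO it was 0.54 ± 0.20 without a call (adjusted p = 0.122). Log2 fold changes of Eif2ak1, the heme-regulated kinase HRI, were 0.24 ± 0.10 and 0.31 ± 0.14, those of Eif2ak2, the RNA-sensing PKR, 0.15 ± 0.14 and 0.19 ± 0.18, and those of Eif2ak4, the amino acid sensor GCN2, -0.0033 ± 0.13 and -0.07 ± 0.19. None of these 3 was called in either kit. Of 11 subunits of eIF2, eIF2B and the eIF2α phosphatases, 2 rose by Trad-KAPA and none was called by 3’-LEXO (edgeR), with medians of 0.10 and 0.25. The most abundant, Ppp1r15b and Ppp1ca, which belong to the phosphatase, had log2 fold changes of 0.10 ± 0.10 and -0.20 ± 0.11 in Trad-KAPA, neither called.

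Of 7 partners and co-regulators of ATF4, 4 rose by Trad-KAPA and 2 by 3’-LEXO. Cebpd was the gene called in both kits. Cebpd, a C/EBP factor that can pair with ATF4, was 4.89, 4.55 and 4.55 CPM in control and 11.1, 10.4 and 11.4 CPM in iron-loaded Trad-KAPA libraries (log2 fold change 1.16 ± 0.14). Unlike for the 10 genes, iron-loaded mouse 1 was not the highest there.

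Amino acid transporters rose in 5 of 8 cases by Trad-KAPA and 3 of 8 by 3’-LEXO, and 0 fell. Slc7a11, the cystine importer, was nearly absent from control liver, with 2 pooled reads against 51 in Trad-KAPA, a ratio of 27.2 (95% exact interval 7.14 to 230.3), and 4 against 39 in 3’-LEXO, a ratio of 11.8 (4.26 to 45.5). None of its control libraries reached the filter on low counts, so that it entered the fit only through the iron-loaded mice. Slc38a2, which imports neutral amino acids, rose from 98.0, 102 and 105 CPM to 225, 236 and 241 CPM in Trad-KAPA (log2 fold change 1.13 ± 0.11, edgeR adjusted p = 0.00148). In 3’-LEXO it was 0.82 ± 0.14 (adjusted p = 0.0138). Slc1a5, the glutamine carrier, rose by 1.21 ± 0.32 and 1.62 ± 0.29. The 3 iron-loaded mice were alike for Slc38a2, and mouse 1 was high for Slc1a5.

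Of the aminoacyl-tRNA synthetases and the tRNA exporter Xpot, 3 of 14 were called higher and 1 lower in Trad-KAPA and none of 14 was called in 3’-LEXO by edgeR, with a median log2 fold change of 0.45 in both kits. Their summed level was 779 to 788 CPM in control and 891 to 1597 CPM in iron-loaded Trad-KAPA libraries. The lower one was Tars, the threonyl-tRNA synthetase (-0.63 ± 0.14, adjusted p = 0.0222). Eprs, for glutamyl- and prolyl-tRNA, was at 292, 133 and 136 CPM in iron-loaded and 110, 104 and 106 CPM in control Trad-KAPA libraries. Mouse 1 was the highest, and the difference was not called with all mice (log2 fold change 0.72 ± 0.26). Without mouse 1 it was smaller, and it was called in Trad-KAPA (0.30) but not in 3’-LEXO (0.27). Genes of amino acid synthesis and transsulfuration did not move one way, with 2 called higher and 2 lower of 9 in Trad-KAPA and 1 lower of 8 in 3’-LEXO. Cbs, which starts transsulfuration, fell in both kits, by 0.74 ± 0.13 and 0.82 ± 0.15 on the log2 scale.

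Among 10 tested genes of translation and growth brakes and other ATF4 targets, 5 rose and 1 fell in Trad-KAPA and 2 rose in 3’-LEXO. Ddit4, an inhibitor of mTORC1, rose from 3.62, 1.88 and 3.98 CPM to 30.1, 11.5 and 11.1 CPM in Trad-KAPA (log2 fold change 2.38 ± 0.43) and by 2.22 ± 0.36 in 3’-LEXO. Soat2, which esterifies cholesterol, rose by 1.04 ± 0.25 and 1.30 ± 0.24. Both were raised in all iron-loaded mice and most in mouse 1.

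**Figure D4:**
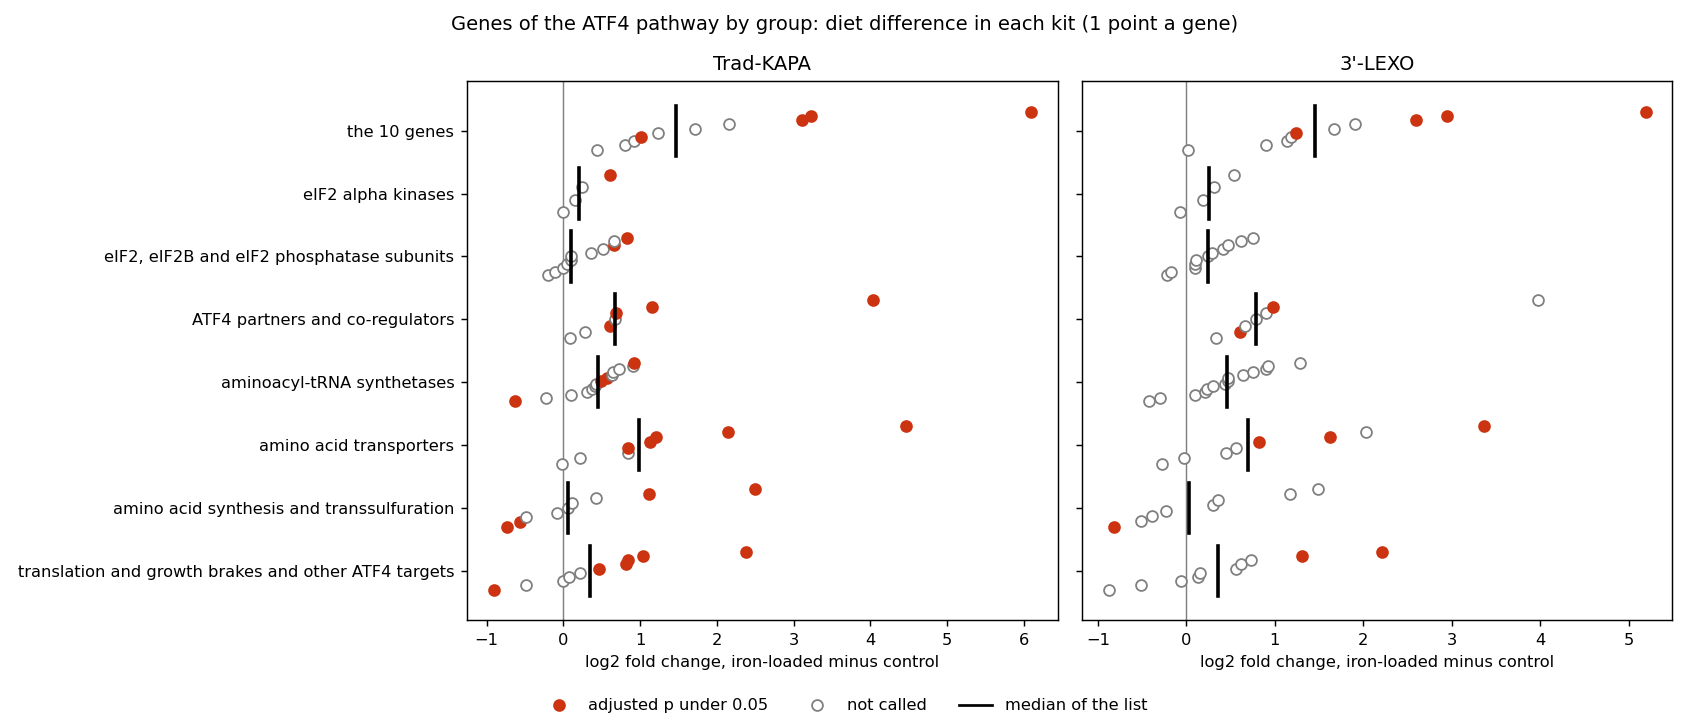
The log2 fold change (iron-loaded minus control) of each gene of the 10 genes and of the 7 lists around ATF4, in Trad-KAPA (left) and 3’-LEXO (right), where red points passed an adjusted p of 0.05, open points did not and the black line is the list's median. The medians are 1.47 and 1.46 for the 10 genes, which were selected with these differences known and so had to lie high, and for the lists they run from 0.05 to 0.99 on the left and from 0.03 to 0.79 on the right.

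Markers of other cells moved with the diet and are given beside these results. Of 5 tested markers listed for other macrophages and neutrophils, 4 rose by Trad-KAPA (Trem2, Gpnmb, S100a8 and S100a9) and 3 by 3’-LEXO (Gpnmb, S100a8 and S100a9). Of Ccr2 and Ly6c2, also on this list, only 1 was tested in Trad-KAPA, and it was not called. Of Trem2, Ccr2 and Ly6c2, 2 were tested in 3’-LEXO and neither was called. The summed level of the list was 2.53 to 5.01 CPM in control and 13.9 to 18.2 CPM in iron-loaded Trad-KAPA libraries. Kupffer cell markers summed to 298 to 477 CPM in control and 539 to 586 CPM in iron-loaded Trad-KAPA libraries, with 2 of 6 called higher there and 1 of 6 by 3’-LEXO. Among markers of sinusoidal endothelium 1 of 6 rose in Trad-KAPA, and 1 rose and 2 fell in 3’-LEXO. Among hepatocyte markers 1 of 6 fell in both kits, as did 1 of 6 stellate cell markers in Trad-KAPA. None of the tested lymphocyte, cholangiocyte or red cell markers was called by edgeR in either kit. Tested were 4 of 6 lymphocyte markers in Trad-KAPA and 3 in 3’-LEXO. In each kit 2 of 4 cholangiocyte and 4 of 5 red cell markers were tested. Red cell genes had the lowest medians, -1.86 and -1.90, with 20.1 to 151 CPM in control and 16.4 to 28.8 CPM in iron-loaded Trad-KAPA libraries. None of the markers was at 0 in all libraries of a kit. The summed markers of macrophages and neutrophils were raised in all 3 iron-loaded mice, and their part in the levels of the 10 genes was not tested.

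The genes whose pattern was most like that of the 10 genes were Ctsl (a lysosomal protease), Eprs, Gadd45a (a stress-induced growth arrest gene), Abca8b (an ABC transporter) and Ddx21 (an RNA helicase of the nucleolus). Likeness was Pearson's r between a gene's log2(CPM + 1), centred within each kit, and the mean of the scaled values of the 10 genes over the 12 libraries. It was 0.993 for Ctsl, 0.990 for Eprs, 0.988 for Gadd45a, 0.987 for Abca8b and 0.986 for Ddx21, out of 12229 genes. The points share the mice, and iron-loaded mouse 1 was the highest for all 5 genes in both kits, so that r describes that mouse above all. Gadd45a was 3.32, 3.01 and 2.60 CPM in control and 51.0, 7.51 and 7.26 CPM in iron-loaded Trad-KAPA libraries. With Spearman's rho, which gives less weight to that mouse, 0 of these 5 genes were among the 5 most alike.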

How the data were processed

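Liver RNA of 6 mice was read in 12 libraries, 3 per diet and kit. Reads were aligned by the authors to mm10 (GRCm38) using STAR 2.5.3a, and raw counts per gene of reads unique to exons were deposited. The counting program and its annotation are not given in the sources used here. The deposited counts were neither normalized nor subsampled. Symbols, positions and lengths came from GENCODE M21, which held 26940 of 27022 identifiers. Promoter windows came from RefSeq. The genes and lists were chosen with earlier results of these data known.

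Counts were tested with edgeR 4.0.16 (TMM, its expression filter, quasi-likelihood F test, Benjamini-Hochberg threshold 0.05) in R 4.3.3: diet within each kit, the interaction of diet and kit, and the kits on the control diet. SE is the log2 fold change divided by the square root of F. The steps were checked on simulated data, which had the same spread for every gene and, unlike these data, no outlying mouse or mouse shared between kits. Of 200 changed genes, 96% and 88.5% were recovered in the diet fits of Trad-KAPA and 3’-LEXO. The kit fit recovered 94% and the interaction 60%. Named beside the 10 genes were the 4 kinases, up to 4 genes per list called in both kits with 1 sign (otherwise the 2 most abundant), and the 5 genes most alike.

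The labels give a diet and a number but no mouse, and the study compared the first sample of each diet between the kits as the same RNA. Same-numbered libraries of the kits were taken to share a mouse, so the mouse was a block in alternatives. Their deviations correlated with r of 0.444 to 0.770, but iron-loaded mice 2 and 3 were so alike that r across them (0.592 and 0.520) does not tell them apart. Other alternatives were DESeq2 1.42.0 or its size factors, other filters, all libraries with diet as a covariate for the kit difference, 10 M reads per library, and leaving out each mouse. Totals of 10724672 to 16553616 counts set the precision. P-values measure spread between mice of a single cage per diet. Intervals on reads cover counting error only.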

Additional observations from a re-analysis of the deposited data

How the results depend on the processing

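Of 442 values of 41 results under alternatives, 364 kept direction and side of the threshold or, for counts of genes, stayed within 1.5 times the value reported. With no filter on low counts, the genes of the 10 called rose from 4 to 7 in Trad-KAPA and to 8 in 3’-LEXO, all genes called in 3’-LEXO went from 811 to 2040 and in the interaction from 0 to 7, and the list genes called in 3’-LEXO from 8 to 26. DESeq2 called 1381 genes and 17 list genes in 3’-LEXO, and the cause was not tested. Replicate numbers do not pair mice across diets (r -0.17 to 0.10). With the replicate block, 3’-LEXO gave 436 genes and Atf4 lost its call in both kits, at 0.91 and 1.14. With the mouse as a replicate block the interaction gave 5 genes. Sesn2 in 3’-LEXO turned to -0.017 without a filter and -0.0041 with the block. With all 12 libraries and diet as a covariate, the kit differences of Trib3 (1.11) and Atf5 (-0.39) lost their calls, as did Trib3 with DESeq2 (1.19). Both genes kept them with the mouse as a block (1.16 and -0.44). With Spearman's rho 0 of the 5 genes most alike were shared. Leaving out 1 mouse at a time gave 1 to 5 of the 10 genes, 841 (without control mouse 2) to 2803 (without iron-loaded mouse 1) genes and 6 to 31 list genes in Trad-KAPA. In 3’-LEXO it gave 1 to 4, 199 (without control mouse 3) to 871 and 1 to 13. It moved Ddit3 in Trad-KAPA from -0.25 to 2.18, Gdf15 from -1.07 to 1.72 and, in 3’-LEXO, from -0.88 to 1.57, Sesn2 in 3’-LEXO from -0.21 to 0.19, and the kit difference of Atf3 from -0.92 to 0.26. DESeq2 gave no adjusted p for 3 values. Depth limits Asns, Chac1 and Atf3 most, which had few reads on the control diet.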

Other observations

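Other stress programmes were counted beside the 10 genes, and no difference between them and the 10 genes was tested. Of 9 tested NRF2 target genes, 6 rose in Trad-KAPA and 4 in 3’-LEXO (edgeR), with medians of 0.74 and 0.89. Both counts include Slc7a11, which was also counted among the amino acid transporters and passed the filter only through the iron-loaded mice. Nqo1, a quinone reductase, rose from 6.10, 5.69 and 5.13 CPM to 14.0, 17.0 and 16.8 CPM in Trad-KAPA (log2 fold change 1.43 ± 0.15) and by 1.37 ± 0.20 in 3’-LEXO, and iron-loaded mouse 1 was the lowest of the iron-loaded mice. Gstm3, a glutathione transferase, and Srxn1, sulfiredoxin, rose by 1.15 ± 0.14 and 0.74 ± 0.17 in Trad-KAPA. Of 13 chaperones of the other arms of the unfolded protein response, 1 was called higher and 1 lower in Trad-KAPA and 1 higher in 3’-LEXO. In Trad-KAPA this is close to the share of all genes. Dnajb9, a helper of the ER chaperone BiP, rose in both kits (1.14 ± 0.17 and 1.09 ± 0.23). Of 8 mitochondrial stress chaperones and proteases edgeR called none in either kit; Hspa9 was 1202 CPM in iron-loaded mouse 1 and 457 and 464 CPM in the other 2 in Trad-KAPA, against 402, 401 and 421 CPM in control mice. By Trad-KAPA the median log2 difference from the control mean in iron-loaded mice 1, 2 and 3 was 0.67, 0.04 and 0.07 for the chaperones of the unfolded protein response, 0.54, -0.05 and 0.04 for the mitochondrial list and 0.76, 0.17 and 0.26 for the p53 targets, so that mouse 1 was the highest there too, while for the NRF2 targets it was 0.94, 0.80 and 0.83. Hspd1 had log2 fold changes of 0.19 ± 0.13 and 0.52 ± 0.20.

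PPAR-alpha target genes, which share Fgf21 as a target with ATF4, had 7 of 12 called lower and 1 higher in Trad-KAPA and 3 lower and 1 higher in 3’-LEXO. The shares of all genes given above stand beside this list and those that follow. Plin2, a lipid droplet protein, fell by 1.39 ± 0.14 and 1.31 ± 0.17 on the log2 scale, Acot1 by 2.82 ± 0.53 and 2.31 ± 0.43 and Acaa1b by 1.63 ± 0.39 and 1.37 ± 0.35. Cyp4a14, a fatty acid hydroxylase, rose by 2.98 ± 0.41 and 2.80 ± 0.31. Among p53 targets 2 of 9 rose in Trad-KAPA and 1 in 3’-LEXO, Trp53inp1 in both (1.52 ± 0.34 and 1.33 ± 0.33), with its highest level in iron-loaded mouse 1. Among immediate early genes Myc (2.74 ± 0.51 and 2.18 ± 0.41) and Klf6 (0.90 ± 0.13 and 1.33 ± 0.28) were the 2 of 9 that rose in each kit. Of the FGF21 receptor genes, Fgfr2 fell in both kits, by 0.52 ± 0.11 and 0.79 ± 0.16, and in all 1 of 5 rose and 3 fell in Trad-KAPA and 1 fell in 3’-LEXO.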
